A study of Mus musculus with 35 samples.

Results

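Reactive astrocyte markers are transcripts that astrocytes make more of after injury to the brain, and 10 of them were followed here by symbol: Gfap, Vim, Nes, Lcn2, Cd44, Steap4, Aspg, S1pr3, Cp and S100a6. They are 10 of the 32544 genes in the count tables. The study profiled N6-methyladenosine (m6A), a methyl mark on adenosine inside RNA, in the hippocampus of mice after kainic acid (KA), an agonist of glutamate receptors, given into the amygdala. RNA pulled down with an m6A antibody (m6A libraries) and total RNA of the same kind of tissue (input libraries) were sequenced. The comparison for each marker was KA against PBS at 24 h, in the acute phase after status epilepticus, and at 2 weeks, when the mice are epileptic.

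All groups were male C57BL/6JOlaHsd mice of 7 to 9 weeks with a cannula implanted over the amygdala, and each library came from 1 mouse. The KA mice received kainic acid through the cannula and the control mice PBS, and in the KA mice lorazepam followed after 40 minutes, to lessen the seizures. The m6A libraries came from 5 KA and 3 PBS mice at 24 h and from 6 KA and 5 PBS mice at 2 weeks. The input libraries with 100000 or more counts came from 3 KA mice and 1 PBS mouse at 24 h and from 6 KA and 3 PBS mice at 2 weeks. The tissue was hippocampus as a whole, so a marker's level mixes all cell types, and fewer cells of a type and less RNA per cell cannot be told apart. The labels tie no seizure score or extent of injury to single mice.

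Astrocytes carry glutamate and potassium away from synapses and contact blood vessels. After seizures, trauma or infection they enlarge, make more intermediate filament protein and switch on secreted, adhesion and iron- or copper-handling genes, a response called reactive gliosis. Gliosis of the hippocampus is a known feature of temporal lobe epilepsy. Gfap, Vim and Nes encode intermediate filament proteins, of which GFAP is the standard marker of astrocytes and nestin is also made by neural progenitors. Cd44 encodes a receptor for the matrix sugar hyaluronan, S1pr3 a G protein-coupled receptor for the lipid sphingosine 1-phosphate. Lcn2 encodes a secreted lipocalin that binds iron-carrying siderophores, Steap4 a metalloreductase, and Cp ceruloplasmin, a copper-carrying ferroxidase. Aspg encodes an asparaginase and S100a6 a calcium-binding protein. Vim, Cd44 and S100a6 are also made by vascular, immune or fibroblast-like cells.

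The stretches of DNA just before the start of 4 of these genes are shown because Gfap and Vim are the filament pair that defines the response, and Steap4 was the gene whose level was most like that of Lcn2 across the m6A libraries. The sequences are from RefSeq on GRCm38.p6, which is the same build as the authors' mm10, and each holds the 250 bases before the start, 5′ to 3′ on the strand of the gene. Gfap lies on the minus strand at chr11:102897201-102897450, Vim on the plus strand at chr2:13574061-13574310, Lcn2 on the minus strand at chr2:32387740-32387989 and Steap4 on the plus strand at chr5:7960222-7960471. Capitals mark matches, on either strand, to any of 4 motifs: a STAT site (TTCNNNGAA), an NF-kB site (GGG and TTCC with any 3 bases between), an AP-1 site (TGANTCA) and a GC box (GGGCGG).
Gfap: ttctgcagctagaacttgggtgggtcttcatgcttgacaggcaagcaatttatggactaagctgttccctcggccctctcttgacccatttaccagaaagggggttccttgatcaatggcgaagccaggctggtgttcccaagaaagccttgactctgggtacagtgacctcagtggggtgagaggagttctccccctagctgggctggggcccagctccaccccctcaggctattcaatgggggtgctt
Vim: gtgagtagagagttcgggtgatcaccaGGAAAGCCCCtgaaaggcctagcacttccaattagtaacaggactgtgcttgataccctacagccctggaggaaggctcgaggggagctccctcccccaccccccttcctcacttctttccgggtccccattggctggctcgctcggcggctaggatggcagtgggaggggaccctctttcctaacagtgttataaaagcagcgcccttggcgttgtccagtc
Lcn2: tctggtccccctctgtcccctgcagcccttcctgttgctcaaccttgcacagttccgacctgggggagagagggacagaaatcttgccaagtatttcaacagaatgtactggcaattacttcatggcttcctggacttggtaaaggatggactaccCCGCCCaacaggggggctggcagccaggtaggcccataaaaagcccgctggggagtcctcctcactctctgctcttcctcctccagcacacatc
Steap4: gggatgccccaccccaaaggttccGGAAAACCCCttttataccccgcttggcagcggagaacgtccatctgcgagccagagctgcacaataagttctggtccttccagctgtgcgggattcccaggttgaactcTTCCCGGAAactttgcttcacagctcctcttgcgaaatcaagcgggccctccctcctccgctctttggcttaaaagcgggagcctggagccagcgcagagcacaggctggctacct
Steap4 held both the STAT and the NF-kB letters, Vim the NF-kB letters and Lcn2 a GC box. Gfap held none of the 4 in this window. Among all 10 genes, the STAT letters stood in 1 window (Steap4), the NF-kB letters in 2, the AP-1 letters in 1 (Cp) and the GC box in 4 (Aspg, Lcn2, Nes and S1pr3). Of 32851 windows of the same length, 7.02% held the STAT letters, 4.65% the NF-kB letters, 6.75% the AP-1 letters and 32.7% the GC box. The matches are letters in a sequence and say nothing of which factor bound there.

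The libraries were uneven in depth. The m6A libraries held 1652933 to 34564536 counts, with a median of 15291875, and the 13 input libraries used held 3057578 to 12694434, with a median of 5498360. A further 3 input libraries at 24 h held 3171, 4621 and 34486 counts and were left out of the comparisons. Of the 35 libraries, 8 carry the assay in their column name, and the assay of the other 27 was read from the library prefix. Cells of the hippocampus were represented throughout: the neuronal genes Slc17a7, Prox1 and Camk2a, the astrocyte genes Aqp4 and Slc1a2, the microglial gene Cx3cr1, the endothelial gene Pecam1 and the leukocyte gene Ptprc were detected in 32 of the 32 libraries used. Of the markers, Lcn2, Steap4 and Aspg were detected in 31 and the other 7 in 32. KA mouse 8 at 24 h had a high share of mitochondrial counts, 16.4% in the m6A library and 17.4% in the input library, against medians of 2.46% and 1.72% in its groups. At 2 weeks, the m6A library of KA mouse 6 had 17.5%.

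At 24 h, the m6A libraries of KA mice held more of all 10 markers than those of PBS mice on the fitted scale, with a median log2 fold change of 2.12 against 0.08 for all 16470 genes tested. None of the 10 passed the edgeR test after adjustment over all genes, in which 0.00607% of genes (1 gene) were called. At an unadjusted p under 0.05, 8 of the 10 were higher, against 4.02% of genes. DESeq2 called 6 of the 10 higher, against 0.862% of genes, and voom with quality weights called 7, against 4.59%. In 5 of the 10, Vim, Cd44, Aspg, S1pr3 and S100a6, every KA library lay above every PBS library, which was the case for 2.62% of genes.

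The filament genes Gfap and Vim were the most abundant of the set per length of transcript. Gfap stood at 1433, 857, 2162, 1883 and 263 CPM (the count scaled by the library total) in KA mice 67, 98, 97, 79 and 8, and at 465, 259.5 and 241 CPM in PBS mice 71, 73 and 1. The first 4 of the KA libraries lay above the controls and that of mouse 8 fell among them. On the log2 scale KA exceeded PBS by 1.95 (SE 0.56, edgeR adjusted p = 0.519, DESeq2 adjusted p = 0.0227). Vim stood at 338.5, 253.5, 276, 235 and 66.6 CPM in the same KA mice and at 54.9, 37.1 and 36.0 CPM in PBS mice. All KA libraries were higher than all PBS libraries, with mouse 8 the nearest to them, and the log2 fold change was 2.38 (SE 0.41, edgeR adjusted p = 0.124, DESeq2 adjusted p = 4.48e-06). Nes stood at 81.8, 73.2, 251, 212.5 and 17.6 CPM in KA mice and at 46.8, 38.1 and 4.13 CPM in PBS mice. The nestin values of the groups overlapped through mouse 8, and PBS mouse 1, whose library belongs to another library set than those of PBS mice 71 and 73, was the lowest of all. Its fold change was 2.01 in log2 (SE 0.86, adjusted p = 0.893).

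Of the receptors, Cd44 stood at 94.5, 62.3, 116, 110.2 and 25.1 CPM in KA mice and at 15.1, 12.2 and 9.08 CPM in PBS mice. The KA libraries were all higher, with a log2 fold change of 2.68 (SE 0.43, edgeR adjusted p = 0.103, DESeq2 adjusted p = 3.83e-07). The edgeR value was the lowest of any marker in any comparison. S1pr3 stood at 37.9, 25.4, 77.2, 93.2 and 11.3 CPM in KA mice and at 10.1, 6.22 and 3.62 CPM in PBS mice. Mouse 8 was only a little above PBS mouse 71, and the log2 fold change was 2.81 (SE 0.63, edgeR adjusted p = 0.284, DESeq2 adjusted p = 0.000567).

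The metal-handling genes differed among themselves. Lcn2 stood at 28.8, 39.9, 29.4, 11.9 and 8.61 CPM in KA mice and at 10.3, 0.286 and 5.61 CPM in PBS mice, so that PBS mouse 71 lay above KA mouse 8. The difference was 2.08 in log2 (SE 0.83, adjusted p = 0.837). Steap4 ranged from 2.06 to 5.87 CPM in KA mice and stood at 3.94, 0.215 and 3.32 CPM in PBS mice. These groups overlapped widely, and PBS mouse 73, which was also lowest for Lcn2, stood apart as the lowest library. The log2 fold change of Steap4 was 0.76 (SE 0.72, adjusted p = 0.983). Cp stood at 24.2 to 38.9 CPM in KA mice and at 24.3, 13.2 and 33.0 CPM in PBS mice, with a log2 fold change of 0.45 (SE 0.36, edgeR adjusted p = 0.983), the smallest of the 10.

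Aspg and S100a6 were low in PBS mice. Aspg stood at 7.58, 3.03, 7.28, 9.60 and 1.56 CPM in KA mice and at 1.40, 0.572 and 0.664 CPM in PBS mice, with a log2 fold change of 2.64 (SE 0.61, edgeR adjusted p = 0.309, DESeq2 adjusted p = 0.00409). S100a6 stood at 15.2, 15.7, 10.47, 6.91 and 14.5 CPM in KA mice and at 3.8, 1.07 and 3.62 CPM in PBS mice, with a log2 fold change of 2.17 (SE 0.51, edgeR adjusted p = 0.316, DESeq2 adjusted p = 0.00466). Neither gene overlapped between groups. For S100a6 the library of mouse 8 was among the high ones and that of mouse 79 the lowest of the KA mice.

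**Figure D1:**
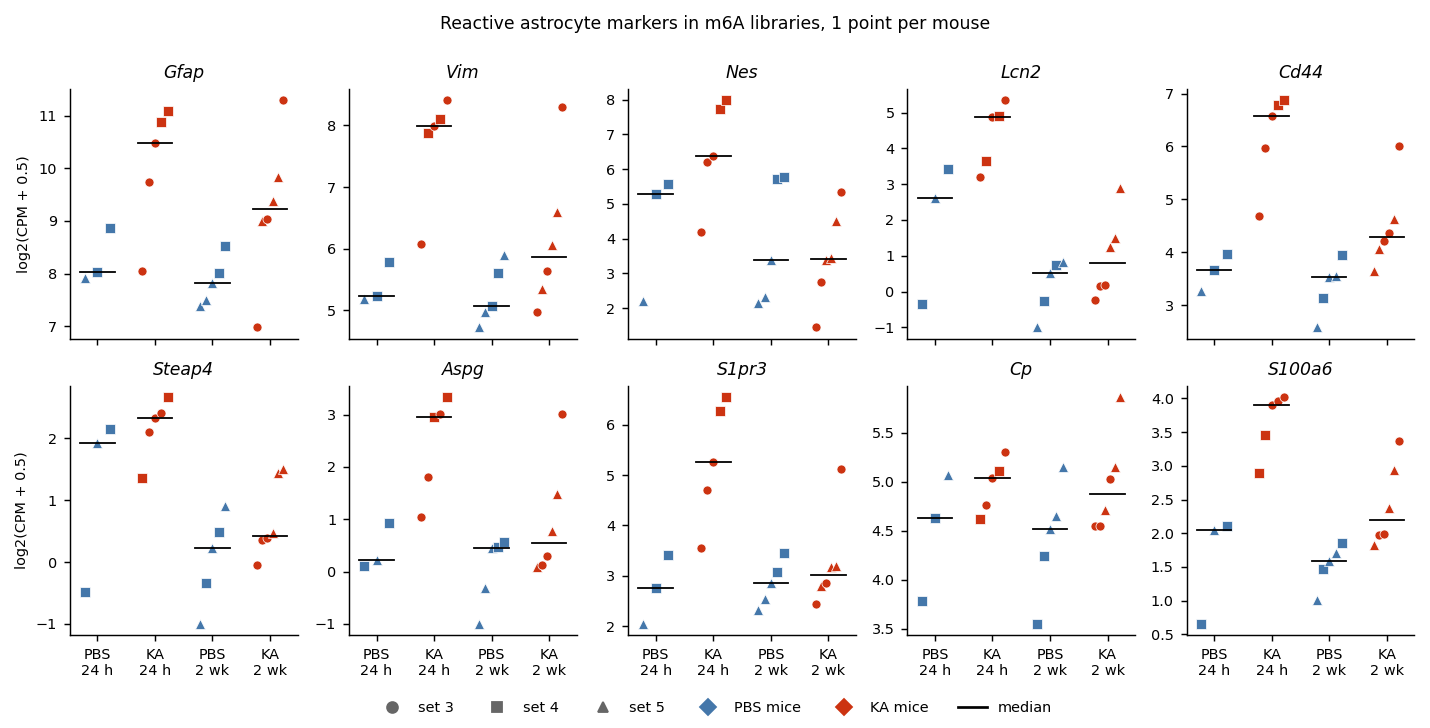
Level of each marker in every m6A library as log2(CPM + 0.5), 1 point per mouse, in columns for PBS and KA at 24 h and 2 weeks, with a bar at the median and a symbol for each library set. At 24 h the 5 KA points of Vim, Cd44, Aspg, S1pr3 and S100a6 lie above all 3 PBS points, while at 2 weeks no marker is separated in that way.

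The library of KA mouse 8 was the lowest of the 5 KA libraries for 7 of the 10 markers, and it was the library of high mitochondrial share. Over all genes its log2 CPM correlated with those of the other KA m6A libraries at 0.89 to 0.92. Those correlated with each other at 0.97 to 0.99, so this library was unlike its group beyond the markers. Without it, edgeR called 5 of the 10 markers higher (Gfap, Vim, Cd44, Aspg and S1pr3), against 0.267% of genes. The KA mice 97 and 79 and PBS mice 71 and 73 share a library set (prefix 4), and within that set 6 of 10 were called: Gfap, Vim, Nes, Cd44, Aspg and S1pr3, against 1.47% of genes called higher. There Gfap stood at 1883 and 2162 CPM in KA mice and at 259.5 and 465 CPM in PBS mice (edgeR adjusted p = 0.0127). Whether the mitochondrial share has a part in the low marker levels of mouse 8 was not tested.

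The same direction was seen in the input libraries at 24 h, where 1 PBS library stood against 3 KA libraries and was assumed by the fit to vary as the KA libraries do. The 10 log2 fold changes had a median of 2.56, against 0.30 for 18918 genes. EdgeR called 0 of 10 (0% of genes), with adjusted p = 0.991 for each. At an unadjusted p under 0.05, 7 were higher, against 1.49% of genes, while DESeq2 called 0, against 0.0529%, and voom with quality weights called 8, against 4.33%. The spread among PBS inputs cannot be seen from 1 library, so none of these calls measures it. Those of voom took in Gfap, although 1 KA library lay below the PBS library for that gene. In 8 of 10, all but Gfap and Cp, the 3 KA libraries lay above the PBS library, as they did for 10.6% of genes.

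Gfap stood at 1287, 882.8 and 165.8 CPM in KA mice 67, 98 and 8 and at 172.4 CPM in PBS mouse 1. Mouse 8 was just below the control. Vim stood at 218, 173 and 59.6 CPM in KA mice and at 26.0 CPM in the PBS mouse, Nes at 53.5, 43.0 and 10.4 CPM against 5.36 CPM. Cd44 stood at 90.2, 58.6 and 25.7 CPM against 10.7 CPM, and S1pr3 at 37.8, 22.3 and 10.2 CPM against 4.65 CPM. The order of the 3 KA mice was the same for these 5 genes, with mouse 67 highest and mouse 8 lowest.

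Lcn2 stood at 23.1, 26.1 and 6.46 CPM in the KA inputs and at 3.70 CPM in the PBS input. Steap4 stood at 5.27, 5.12 and 5.14 CPM against 2.52 CPM, the closest agreement of the 3 KA mice for any marker. Aspg stood at 6.73, 3.58 and 2.32 CPM against 0.394 CPM, and S100a6 at 12.7, 15.1 and 10.6 CPM against 2.76 CPM. Cp, at 28.2, 21.8 and 27.8 CPM against 22.8 CPM, was the gene that overlapped besides Gfap. The largest log2 fold change was that of Aspg at 3.61 (SE 1.06) and the smallest that of Cp at 0.48 (SE 0.38). Mouse 8 was the lowest of the KA inputs for 8 of 10 markers, and its library alone was of another set than the rest. Without it edgeR called 8 of 10 higher, all but Steap4 and Cp, against 7.16% of genes, in a fit of 2 KA libraries against 1 PBS library.

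**Figure D2:**
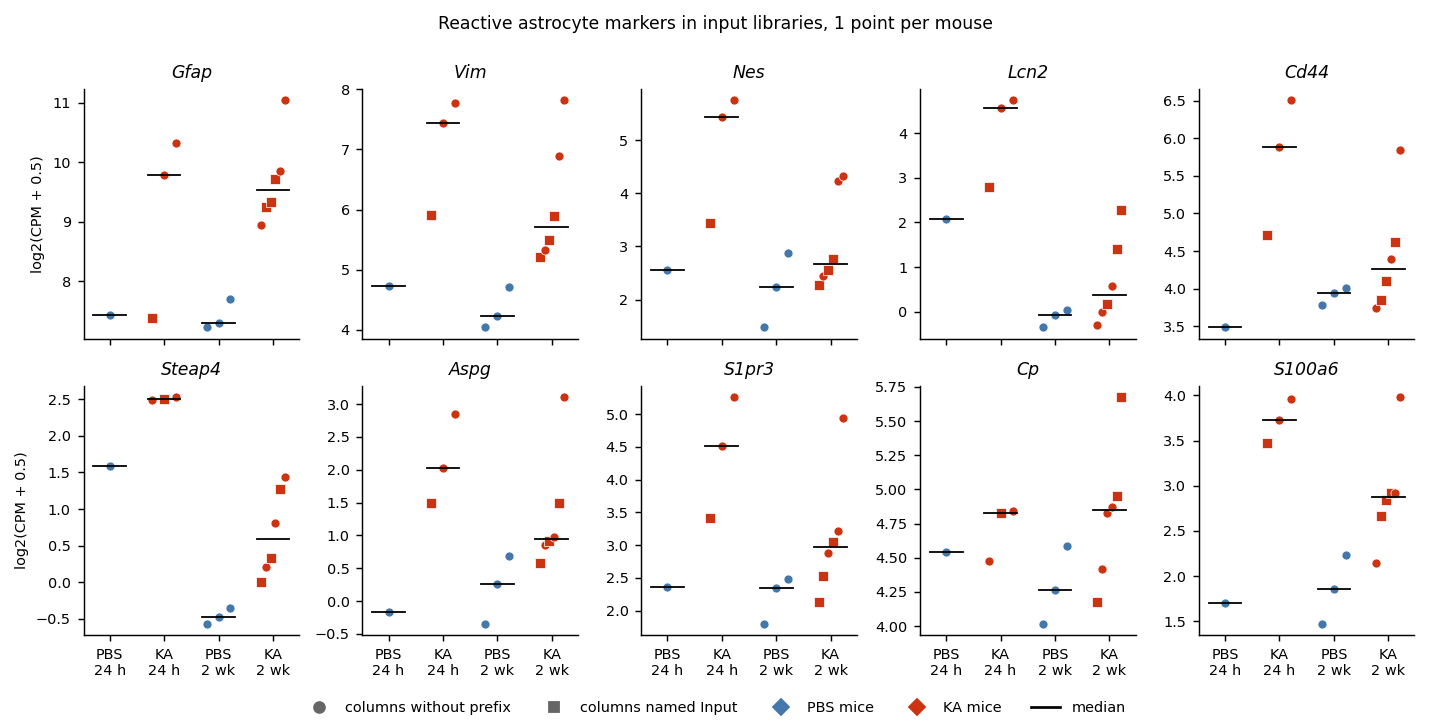
Level of each marker in the input libraries with 100000 or more counts as log2(CPM + 0.5), 1 point per mouse, in columns for PBS and KA at 24 h and 2 weeks, with a bar at the median. At 24 h the single PBS point lies below all 3 KA points for 8 of the 10 markers, and at 2 weeks every KA point of Gfap, Vim and Steap4 lies above the PBS points.

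By 2 weeks the difference in the m6A libraries was smaller for most markers, and over all libraries the groups overlapped for each. The log2 fold change was above 0 for 9 of the 10, with a median of 1.27 against -0.0013 for 16157 genes. EdgeR called 0 of 10 (0% of genes), DESeq2 0 (0.0928% of genes; S1pr3 had no adjusted p there) and voom with quality weights 0 (0.0124% of genes), while 5 were higher at an unadjusted p under 0.05, against 2.85% of genes. In 0 of the 10 did every KA library lie above every PBS library, which held for 0.26% of genes. The adjusted p was 0.875 for 9 markers and 0.891 for Nes. Within set 5, which holds KA mice 21, 7 and 9 and PBS mice 2, 3 and 4, every KA library lay above every PBS library for 5 of the 10, Gfap, Nes, Lcn2, Cd44 and S100a6, against 3.95% of genes. For Nes this was practically a tie, with KA mouse 7 at 9.94 CPM and PBS mouse 2 at 9.937 CPM. In set 5 Gfap ran from 509 to 906 CPM in KA mice and from 165.9 to 225 CPM in PBS mice, and edgeR called 0 of 10 (0% of genes).

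Gfap had a lowest, median and highest value of 125.6, 595 and 2498 CPM in the 6 KA mice, and stood at 258, 365, 165.9, 179 and 225 CPM in PBS mice 50, 78, 2, 3 and 4. The lowest KA library was that of mouse 6, below all PBS libraries, and the other 5 lay above all of them. The log2 fold change was 1.89 (SE 0.53). Vim had 31.0, 57.8 and 315 CPM in KA mice and stood at 33.1, 48.3, 31.0, 26.0 and 59.4 CPM in PBS mice, with a log2 fold change of 1.37 (SE 0.53). KA mouse 42 was the highest for both filament genes.

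Nes was the only marker with a fold change below 0 at 2 weeks, at -0.67 (SE 0.75). It had 2.22, 10.1 and 40.2 CPM in KA mice and stood at 51.9, 53.8, 9.94, 4.52 and 3.95 CPM in PBS mice. The high values were those of PBS mice 50 and 78, whose libraries belong to the set with prefix 4, and this set holds no KA library at 2 weeks. Across all PBS m6A libraries, Nes ranged from 38.1 to 53.8 CPM in set 4 and from 3.95 to 9.94 CPM in set 5 with no overlap. Gfap did not overlap between these sets either, at 258 to 465 CPM in set 4 and 165.9 to 240.9 CPM in set 5, while the other markers did. With the library set as a block, the log2 fold change of Nes was 1.25, and within set 5, which holds KA and PBS mice, it was 1.27 (SE 0.45, adjusted p = 0.956). The direction of Nes at 2 weeks turned with the library set. For every marker, KA and library set were partly mixed in the m6A libraries. At 2 weeks set 3 held KA and set 4 PBS libraries alone, and at 24 h set 3 held KA and set 5 PBS alone. To that extent KA and set cannot be told apart, also in the change with time.

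Cd44 had 12.02, 18.97 and 64.0 CPM in KA mice and stood at 8.26, 14.9, 11.02, 11.2 and 5.47 CPM in PBS mice, with a log2 fold change of 1.39 (SE 0.40). S1pr3 had 4.88, 7.62 and 34.3 CPM in KA mice and stood at 7.93, 10.4, 5.33, 4.46 and 6.69 CPM in PBS mice, with 0.78 (SE 0.46). Apart from KA mouse 42, the values of the S1pr3 groups ran through each other, and for Cd44 only PBS mouse 78 stood above any KA library.

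Lcn2 had 0.351, 1.25 and 6.87 CPM in KA mice and stood at 0.338, 1.17, 0.936, 1.28 and 0 CPM in PBS mice, with a log2 fold change of 1.47 (SE 0.79). Steap4 had 0.468, 0.846 and 2.34 CPM in KA mice and stood at 0.902, 0.293, 1.37, 0.672 and 0 CPM in PBS mice, with 0.89 (SE 0.60). Aspg had 0.567, 0.965 and 7.61 CPM in KA mice and stood at 0.977, 0.877, 0.864, 0.305 and 0 CPM in PBS mice, with 1.81 (SE 0.76). PBS mouse 4 had 0 counts of all 3 genes among 6579414, which allows a level of up to 0.456 CPM, so that these genes were near the limit of counting in the PBS libraries.

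Cp had 22.8, 28.9 and 57.7 CPM in KA mice and stood at 18.4, 11.2, 35.1, 24.6 and 22.3 CPM in PBS mice, with a log2 fold change of 0.61 (SE 0.30). S100a6 had 3.03, 4.09 and 9.87 CPM in KA mice and stood at 2.25, 3.12, 2.52, 2.75 and 1.52 CPM in PBS mice, with 1.17 (SE 0.35). For S100a6 the only overlap was KA mouse 9, just below PBS mouse 78.

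In the inputs at 2 weeks, 7 of the 10 markers passed the filter on low counts, and Lcn2, Steap4 and Aspg did not. Of the 7, all had a log2 fold change above 0, with a median of 1.28 against 0.02 for 13752 genes. EdgeR called 0 of 7 (0% of genes), and 4 were higher at an unadjusted p under 0.05, against 8.41% of genes. DESeq2 called Gfap alone, against 0.538% of genes, and voom with quality weights called Gfap and S100a6, against 1.44%. Without KA mouse 42, edgeR called 1 marker, Gfap, which was also the 1 gene called higher among all genes tested (0.00716%). In 2 of the 7 tested, Gfap and Vim, every KA library lay above every PBS library, against 2.64% of genes, and so did the KA libraries of Steap4, which was not tested. KA mice 7, 9 and 6 had columns named Input, a set without a PBS library at 2 weeks. KA mice 42, 21 and 5 shared the unprefixed set with the 3 PBS mice, so KA and set were partly mixed here too. Within the unprefixed set edgeR called 0 of 7 (0% of genes), with a median log2 fold change of 1.73.

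Gfap had 494, 745 and 2103 CPM in the 6 KA inputs and stood at 208.5, 149 and 157 CPM in PBS mice 2, 3 and 4. The log2 fold change was 2.50 (SE 0.46, edgeR adjusted p = 0.202, DESeq2 adjusted p = 0.000731). Vim had 36.4, 51.9 and 224.5 CPM in KA mice and stood at 25.8, 16.0 and 18.4 CPM in PBS mice, with a log2 fold change of 2.15 (SE 0.70, edgeR adjusted p = 0.278). Nes had 4.35, 5.83 and 19.7 CPM and stood at 6.89, 2.28 and 4.20 CPM in PBS mice, with 1.10 (SE 0.59, adjusted p = 0.419), and only KA mice 42 and 21 lay above all PBS inputs.

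S100a6 had 3.93, 6.85 and 15.3 CPM in KA inputs and stood at 4.22, 3.14 and 2.27 CPM in PBS inputs, with a log2 fold change of 1.28 (SE 0.40, edgeR adjusted p = 0.266, voom adjusted p = 0.0425). S1pr3 had 3.87, 7.33 and 30.3 CPM and stood at 5.11, 4.56 and 2.97 CPM, with 1.29 (SE 0.66, adjusted p = 0.399). Cd44 had 13.0, 18.6 and 57.1 CPM and stood at 15.6, 14.8 and 13.3 CPM, with 0.74 (SE 0.45, adjusted p = 0.474). The Cp values were 17.6, 28.3 and 50.6 CPM against 23.5, 15.7 and 18.7 CPM, with a log2 fold change of 0.63 (SE 0.26, edgeR adjusted p = 0.319). KA mouse 42 was the highest for S100a6, S1pr3 and Cd44, and mouse 7 for Cp.

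The 3 genes that did not pass the filter were low in the controls. Lcn2 had 0.312, 0.802 and 4.35 CPM in KA inputs and stood at 0.444, 0.285 and 0.524 CPM in PBS inputs, which were 2, 1 and 3 counts. Steap4 had 0.499, 1.00 and 2.20 CPM and stood at 0.222, 0.285 and 0.175 CPM, which was 1 count in each PBS input. Aspg had 0.998, 1.43 and 8.12 CPM and stood at 1.11, 0.285 and 0.699 CPM. No test was made of them.

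KA mouse 42 was the highest of the 6 KA mice for 7 of 10 markers in the m6A libraries and for 7 of 10 in the inputs. KA mouse 6 was the lowest for 6 of 10 in the m6A libraries and for 5 of 10 in the inputs. The resting astrocyte gene Aqp4, a water channel, was also highest in mouse 42, at 488 CPM in the m6A library and 461 CPM in the input.

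**Figure D3:**
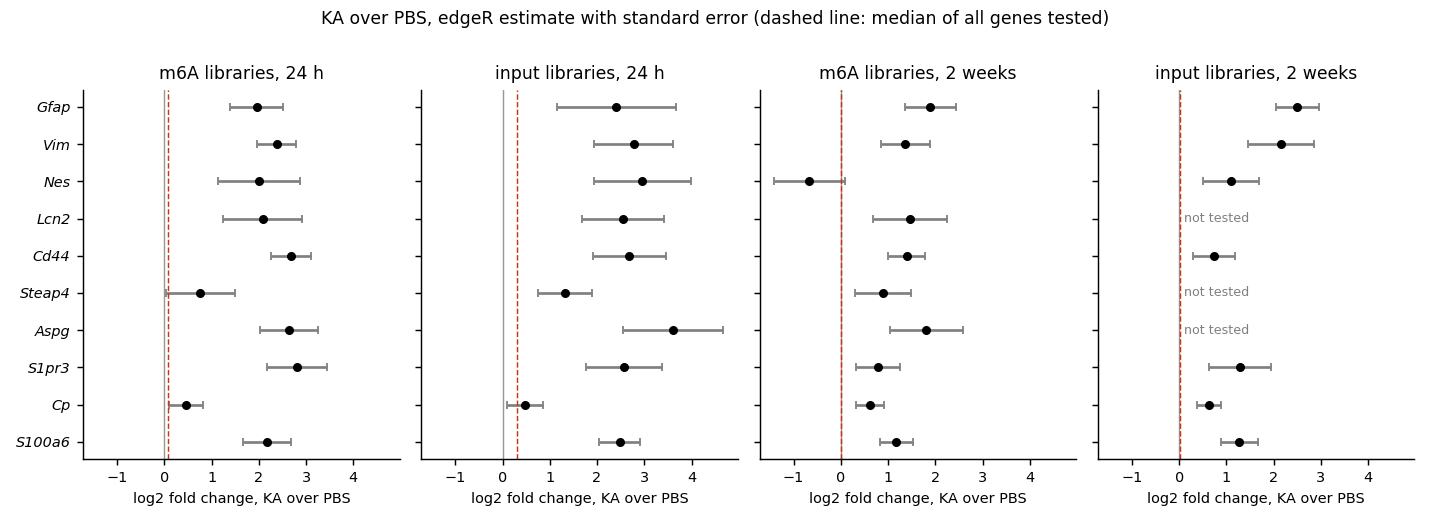
Log2 fold change of KA over PBS with its standard error from edgeR, for each marker, at 24 h and 2 weeks in m6A and input libraries, with a dashed line at the median of all genes tested and no point for markers that did not pass the filter. All values at 24 h lie above 0, and Nes in the m6A libraries at 2 weeks is the one value below 0.

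Whether the difference changed from 24 h to 2 weeks was fitted in the m6A libraries of both times. The change in log2 fold change was below 0 for 8 of the 10 markers, with a median of -0.91 against -0.11 for 17440 genes. It was -2.70 (SE 1.27) for Nes, -2.03 (SE 0.79) for S1pr3 and -1.29 (SE 0.60) for Cd44, the 3 that were lower at an unadjusted p under 0.05, against 1.82% of genes. The Nes value rests on the fold change at 2 weeks that turned with the library set, and with the set as a block it was -1.73 (SE 0.82). It was -0.07 (SE 0.79) for Gfap, whose fold change at 2 weeks was close to that at 24 h. EdgeR called 0 of 10 after adjustment, against 0.00573% of genes, DESeq2 called 0, against 0.0287%, and voom with quality weights called Cd44 lower, against 0.298%. The Gfap value had a wide error, and an equal change at both times was not shown.

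Antibody enrichment of the markers was read from m6A over input in PBS mice at 2 weeks, where 7 of 10 passed the filter. On the log2 scale, this was 2.25 (SE 0.99) for Nes, 0.76 (SE 0.32) for Vim, 0.50 for S1pr3, 0.25 (SE 0.28) for Gfap, -0.04 for Cp, -0.62 for S100a6 and -0.76 (SE 0.30) for Cd44. EdgeR called 0 of 7, against 1.12% of genes, with a smallest adjusted p of 0.256, while 3 passed at an unadjusted p under 0.05, 2 higher and 1 lower, against 16.9% of genes. DESeq2 called 0 of 7, against 4.88% of genes, and voom with quality weights 0, against 7.86%, shares at which 0 of 7 is no result about the markers. PBS mice 50 and 78, with the high Nes values of set 4, had no input in the fit, and with the mouse as a replicate block the Nes value was 0.20 (SE 0.27, adjusted p = 0.721).

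Within the same mouse, the ratio of m6A to input CPM lay on both sides of 1. Its medians in PBS mice at 2 weeks ran from 0.669 for S100a6 to 1.625 for Vim. For Gfap it ran from 0.795 to 1.44 in the 3 PBS mice at 2 weeks, and for Vim from 1.21 to 3.24. Cd44 was below 1 in all 3, from 0.412 to 0.754, and S100a6 too, from 0.597 to 0.876. Nes ran from 0.942 to 1.98. In KA mice at 2 weeks, the Gfap ratio ran from 0.206 to 1.19, and the lowest value was that of mouse 6, whose m6A library had the high mitochondrial share. Over all genes, the deviations of this mouse's m6A and input libraries from their group means correlated at 0.16, below the 0.38 of its best match to another mouse, so that this ratio rests on a weak match of the libraries. The same correlation was 0.08, 0.13 and -0.02 in PBS mice 2, 3 and 4, and mouse 4 matched another mouse better, at 0.03. Mouse 4 gave the highest Gfap and Vim ratios and the lowest Cd44 ratio of the PBS mice. The PBS ratios thus rest on weak matches too.

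The change of this ratio with KA at 2 weeks was below 0 for 9 of the 10 markers, with a median of -0.48 on the log2 scale against -0.04 for 16141 genes. The lowest were Nes at -1.82 (SE 1.19) and Steap4 at -1.54 (SE 1.13), and the highest was Cd44 at 0.63. The Nes value takes in the m6A libraries of PBS mice 50 and 78, which have no input: with the mouse as a fixed replicate block it was -0.0010 (SE 0.35), and the same-mouse ratios had a median of 1.45 in KA mice and 1.44 in PBS mice. Steap4, Lcn2 and Aspg had 1 to 5 counts in each PBS input, so that Steap4 and Lcn2 had no same-mouse ratio in PBS mice and Aspg had 1. They passed the filter of this fit, but neither that of the inputs at 2 weeks nor that of m6A over input in PBS mice. All of them are among the 9 of 10 below 0. EdgeR called 0 of 10 (0% of genes), and 0 passed at an unadjusted p under 0.05, against 4.06% of genes. The smallest adjusted p was 0.807. DESeq2 called 0 of 10, against 0.0248% of genes, and voom with quality weights 0, against 0%. The median over the markers moved with single libraries and with the pairing: it was -0.18 with the mouse as a random replicate block and -0.17 as a fixed one, -0.07 without the input of KA mouse 42, with 5 of 10 then above 0, and -1.14 without the m6A library of that mouse.

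**Figure D4:**
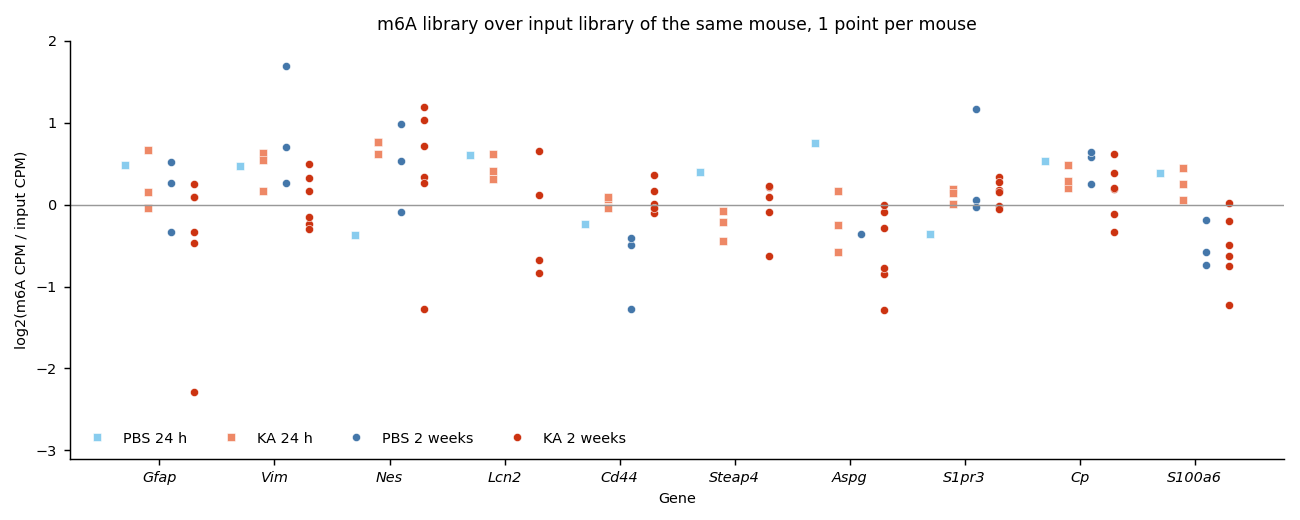
Log2 ratio of m6A to input CPM of each marker in every mouse with both libraries, with KA and PBS mice at 24 h and 2 weeks. The Gfap point of KA mouse 6 at 2 weeks lies lowest for that gene, at a ratio of 0.206, in the mouse whose own libraries were less alike (r = 0.16) than its best match to another mouse (r = 0.38).

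The bases GGACT, a common form of the m6A consensus, were counted in the canonical transcripts of GENCODE vM39 as sequence only. Lcn2 held 2.19 per kb and Nes 1.80 per kb, against a median of 1.04 over 13284 genes, while Gfap held 1.04, Vim 0.912, and Steap4 and S100a6 held 0. Per kb of transcript, the levels in m6A libraries of PBS mice at 24 h ran from Gfap with a median of 90.2 CPM per kb, Vim with 16.9, Nes with 6.22, Lcn2 with 6.13, Cp with 5.85 and S100a6 with 4.64 to Cd44 with 2.15, S1pr3 with 1.39, Steap4 with 0.991 and Aspg with 0.241. Gfap and Vim did not overlap with each other or with the next gene, while below Vim every neighbour in this order overlapped with the next in these 3 mice. In KA mice at 24 h, Lcn2 came after Vim at 31.5 CPM per kb, and Cp stood at 7.78, below S1pr3 at 8.49.

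The markers varied together across libraries. Over the 19 m6A libraries, 44 of the 45 pairs had a Pearson r above 0 on the log2 scale, with a median of 0.69, from -0.21 for Cp with Nes to 0.94 for Aspg with Cd44. Over the 13 inputs, 45 of 45 were above 0, with a median of 0.70, from 0.23 to 0.94 for S1pr3 with Cd44. The points share treatment, time, library set and depth, so these values are a description. The genes most like Gfap over the m6A libraries, of 15549 ranked, were Plce1 (r = 0.95), Slc14a1 (r = 0.93), Pdlim4 and Hspb6 (r = 0.92 each) and Parp3 (r = 0.91). The gene most like Lcn2 was the marker Steap4 (r = 0.91), followed by Ecscr (r = 0.87), Tgfbi (r = 0.86), Msr1 (r = 0.855) and C3 (r = 0.85).

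**Figure D5:**
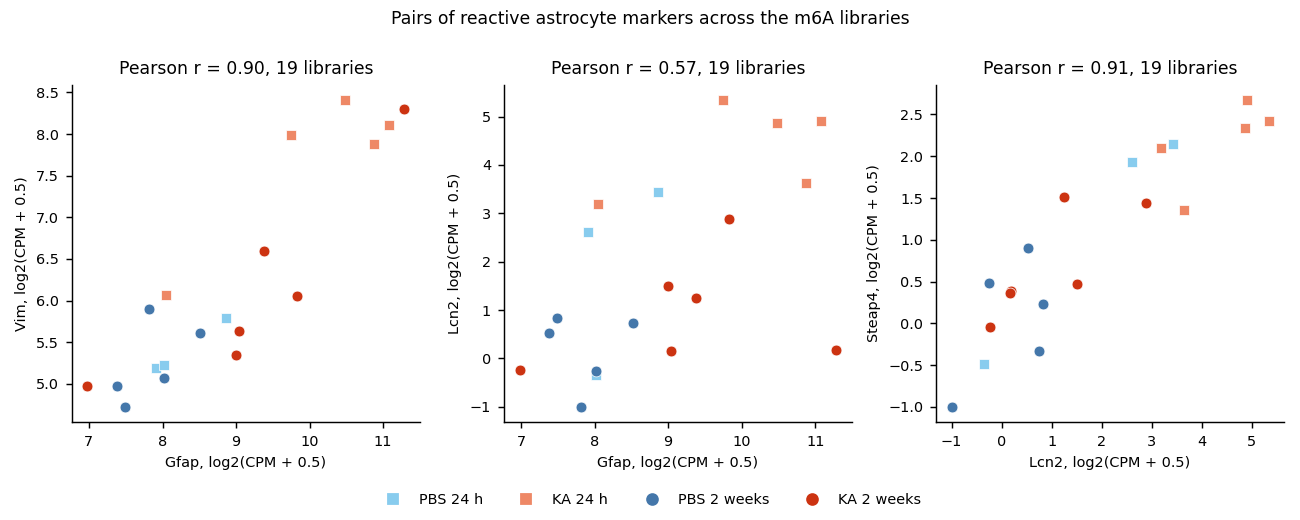
Levels of 3 pairs of markers as log2(CPM + 0.5) in the 19 m6A libraries, 1 point per library, squares for 24 h and circles for 2 weeks. Gfap with Vim (r = 0.90) and Lcn2 with Steap4 (r = 0.91) lie close to a line, and Gfap with Lcn2 (r = 0.57) is looser, with KA mouse 42 at 2 weeks highest for Gfap at a low Lcn2 level.

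A list of 34 further reactive astrocyte genes lay on the same side. In the m6A libraries at 24 h, 31 of the 33 tested were above 0, with a median of 1.87 against 0.08 for all genes, and 24 were higher at an unadjusted p under 0.05, against the 4.02% of all genes. One gene rose after adjustment: Tm4sf1, a membrane glycoprotein, stood at 51.8 ± 9.17 CPM (SD, n = 5) in KA mice and 4.78 ± 1.04 CPM (SD, n = 3) in PBS mice, with a log2 fold change of 3.42 (SE 0.27, edgeR adjusted p = 0.0028), and it was the 1 gene called among 16470. The call was lost with the library set as a block (3.56, adjusted p = 0.0697) and without PBS mouse 71 (3.41, adjusted p = 0.0952) or 73 (3.28, adjusted p = 0.0567), though the fold change hardly moved. DESeq2 called 15 of the list, against 0.862% of genes, and voom 20, against 4.59%. Stat3, a transcription factor of cytokine signalling, stood at 86.6 ± 28.1 CPM (SD, n = 5) in KA mice and 27.4 ± 1.68 CPM (SD, n = 3) in PBS mice, with 1.61 (SE 0.28, edgeR adjusted p = 0.124). At 2 weeks the medians of the list were 0.69 in the m6A libraries and 0.71 in the inputs, with 11 of 31 (2.85% of all genes) and 11 of 22 (8.41% of all genes) higher at an unadjusted p under 0.05 and 0 called by edgeR (DESeq2 and voom called 0 and 0 in the m6A libraries and 1 and 1 in the inputs). In the inputs at 24 h the median was 2.02, with 18 of 34 higher at an unadjusted p under 0.05 (1.49% of all genes), 0 called by edgeR, 5 by DESeq2 (0.0529%) and 17 by voom (4.33%).

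Genes of resting astrocytes lay on both sides of 0 at 24 h. Of 15 such genes, 10 were below 0 in the m6A libraries, with a median of -0.36, and 4 were lower at an unadjusted p under 0.05: Gja1, Gjb6, Ntsr2 and Glul, against 1.29% of genes. Gja1, a gap junction protein, stood at 86.6 ± 43.1 CPM (SD, n = 5) in KA mice and 193 ± 55.3 CPM (SD, n = 3) in PBS mice, with a log2 fold change of -1.23 (SE 0.38, edgeR adjusted p = 0.569). Aqp4 lay on the other side, at 296 ± 176 CPM (SD, n = 5) in KA mice and 153.6 ± 27.8 CPM (SD, n = 3) in PBS mice, with a log2 fold change of 0.86 (SE 0.46, edgeR adjusted p = 0.983). So did Aldh1l1, an enzyme of folate metabolism, at 41.6 ± 17.3 CPM (SD, n = 5) and 20.6 ± 6.77 CPM (SD, n = 3), with 0.93 (SE 0.42, edgeR adjusted p = 0.949). In the inputs at 24 h the median of the list was 0.35, close to the 0.30 of all genes. At 2 weeks it was 0.11 in the m6A libraries and 0.48 in the inputs, where 13 of the 15 were above 0. At an unadjusted p under 0.05, 1 was higher in the m6A libraries at 2 weeks (2.85% of all genes) and 4 in the inputs at 2 weeks (8.41%), with 0 lower in both. In the inputs at 24 h 0 were higher (1.49%) and 0 lower. EdgeR and DESeq2 called 0 in any of the 4 comparisons. Voom called 2 higher (4.59% of all genes) and 3 lower (2.22%) in the m6A libraries at 24 h, 6 higher (4.33%) and 0 lower (3.5%) in the inputs at 24 h, and 0 at 2 weeks. The summed level of the list was 1144 to 4346 CPM (median 4011) in KA and 3595 to 4539 CPM (median 4430) in PBS m6A libraries at 24 h.

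Of the lists of other cell types, some lay mostly on one side of 0. EdgeR called 0 of their genes in any KA against PBS comparison, and at most 0.00607% of all genes. In the m6A libraries at 24 h DESeq2 called 1 gene of these lists higher, the endothelial Pecam1, and 1 lower, the microglial P2ry12. Over all 16470 genes it called 142 higher and 14 lower. Voom called at most 2 genes of a list higher there (4.59% of all genes) and at most 1 lower (2.22%). At 2 weeks DESeq2 called the leukocyte gene Ptprc higher in the m6A libraries (adjusted p = 0.0108, 0.0928% of all genes). In the inputs at 2 weeks it called 2 of 12 microglial genes higher (0.538%) and voom 4 (1.44%). Voom also called 1 excitatory neuron gene higher there and 1 pericyte or fibroblast gene lower. In the inputs at 24 h, with 1 PBS library, voom called endothelial and microglial genes among others. In the m6A libraries at 24 h, 7 of 7 tested infiltrating leukocyte genes of a list of 11 were above 0 with a median log2 fold change of 1.47, and their summed level was 34.8 to 102.8 CPM in KA and 13.8 to 44.2 CPM in PBS libraries. For endothelial cells, 8 of 10 genes were above 0 with a median of 0.48, and the sum was 360.1 to 545.7 CPM in KA and 262 to 339.8 CPM in PBS libraries. For microglia, 10 of 12 were above 0 with a median of 0.31, and the sum was 222 to 494 CPM in KA and 260.0 to 338 CPM in PBS libraries. P2ry12 lay on the other side, with a log2 fold change of -1.30 (SE 0.31, edgeR adjusted p = 0.323, DESeq2 adjusted p = 0.0419). Of 6 genes of excitatory neurons, 0 were above 0, with a median of -0.44. Their sum was 967.8 to 3926 CPM (median 3509) in KA and 2847 to 5684 CPM (median 5043) in PBS libraries. Of 6 oligodendrocyte genes, 1 was above 0, with a median of -0.44 and a sum of 1321 to 2711 CPM in KA and 1786 to 3699 CPM in PBS libraries. For choroid plexus and ependyma, 7 of 8 tested were above 0 with a median of 0.85, and the sum was 38.8 to 995 CPM in KA and 53.8 to 607 CPM in PBS libraries. In the inputs at 24 h, 11 of 11 leukocyte genes were above 0 with a median of 1.90 and a sum of 38.1 to 78.6 CPM in KA libraries against 28.4 CPM. So were 10 of 10 endothelial genes, with a median of 1.71 and a sum of 502.7 to 1299 CPM against 929.5 CPM. Pecam1 made up most of the endothelial sum, with a mean of 749.7 CPM in KA inputs against 856.8 CPM. Its log2 fold change was 0.13 in the inputs at 24 h and -0.51 (SE 0.24) in those at 2 weeks. At 2 weeks, 11 of 12 microglial genes were above 0 with a median of 0.88 in the m6A libraries, and 12 of 12 with a median of 0.89 in the inputs. Their sum was 255.6 to 733.9 CPM in KA and 193.7 to 288.8 CPM in PBS m6A libraries, and 227 to 511 CPM against 146.3 to 229 CPM in inputs. None of these lists had a gene at 0 in every library of the 24 h m6A groups. Their part in the levels of Vim, Cd44, Lcn2 and S100a6 was not tested.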

How the data were processed

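Hippocampal RNA of single mice was sequenced as total RNA (input) and as RNA bound by an m6A antibody. The authors deposited raw gene counts per lane, on mm10 per the labels; the sources used here name no aligner, counter or strand setting, so overlapping, antisense and near-identical genes stay uncertain. The 4 lanes of each library were summed, and 8 columns could not be matched to a sample and were not used. CPM are counts scaled by the library total. Comparisons were fitted with edgeR 4.0.16 (R 4.3.3; quasi-likelihood test, TMM, filterByExpr, Benjamini-Hochberg at 0.05 over all genes), after tests on simulated data. Alternatives were DESeq2 1.42.0, voom with quality weights (limma 3.58.1), other scaling and filters, the library set or mouse as a block and leaving out single libraries. Same-mouse pairing comes from the labels: of 9 mice with both libraries at 2 weeks, deviations correlated from -0.02 to 0.54, and 7 libraries were most like their own partner. Other genes were named by the lowest p within a list, or by the highest correlation with Gfap or Lcn2 over m6A libraries among genes of 1 CPM or more on average. The markers and lists were chosen with earlier results of these data known, and the fits within a library set, without the highest mitochondrial share, without KA mice 42 and 6 and with a fixed mouse block were added after seeing the data. Replicates are mice, and in the fits within 1 assay p-values measure the spread between them. In the inputs at 24 h that spread comes from the KA mice alone, as there was 1 PBS mouse. The main fits of m6A over input and of its change with KA treated both libraries of a mouse as separate. Their p-values leave out the pairing, which the fits with the mouse as a block take in. Intervals cover counting error only.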

Additional observations from a re-analysis of the deposited data

Results flagged for a closer look

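KA mouse 42 at 2 weeks stood far from the other 5 KA mice for most markers, by the gap of a sample to its nearest neighbour over the range of the group. In its input library, Gfap stood at 2103 CPM (nearest other mouse 921 CPM), Cd44 at 57.13 CPM (24.0), Aspg at 8.117 CPM (2.30), S1pr3 at 30.28 CPM (8.79) and S100a6 at 15.3 CPM (7.08). In its m6A library, Gfap stood at 2498 CPM (nearest 906 CPM), Vim at 315.4 CPM (96.2), Cd44 at 64 CPM (24.1), Aspg at 7.609 CPM (2.29) and S1pr3 at 34.28 CPM (8.70). KA mouse 7 stood apart in its m6A library for Lcn2 at 6.866 CPM (nearest 2.33 CPM) and Cp at 57.68 CPM (35.0). In all, 12 of 40 combinations of marker and group had such a value. The gaps were taken on CPM and not on a log scale. A chance rate of about 1 in 20 single groups holds for values that follow a normal curve, so the count was not set against it. The markers also vary together and 10 of the 12 values are from the 2 libraries of mouse 42, so the count is not 12 separate events.

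The input library of KA mouse 97 at 24 h held 3171 counts and was used in no comparison. In it, Gfap stood at 2208 CPM from 7 counts (95% Poisson interval 887.5 to 4548 CPM). In the PBS inputs of similar kind it stood at 649 CPM from 3 counts and 232 CPM from 8 counts. Vim stood at 946.1 CPM from 3 counts (195 to 2765 CPM), against 0 CPM from 0 counts and 58.0 CPM from 2 counts. With counts this low on both sides, no difference between KA and PBS was shown.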

How the results depend on the processing

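By comparison, the direction held and the threshold was not crossed for most marker values: 159 of 190 at 24 h in m6A libraries (the other 31 passed the threshold), 228 of 230 at 2 weeks in m6A libraries, 103 of 139 and 122 of 126 in inputs at 24 h and 2 weeks, 258 of 280 for the change with time, 104 of 112 for m6A over input in PBS mice and 257 of 290 for its change with KA. The counts of markers called, 0 in each comparison with edgeR, moved as follows. In m6A libraries at 24 h they were 6 with DESeq2, 7 with voom, 1 without a filter, 1 with all m6A libraries in 1 fit, 5 without the library of highest mitochondrial share, 6 within set 4, and 0 to 5 with single libraries left out (5 without KA mouse 8). In inputs at 24 h they were 8 with voom, 4 of 9 tested with all labelled inputs, 8 without the library of highest mitochondrial share or within the unprefixed set (both leave out KA mouse 8), and 0 to 8 with single libraries left out (8 without KA mouse 8). In inputs at 2 weeks they were 1 with DESeq2, 2 with voom and 0 to 1 with single libraries left out (1 without KA mouse 42), and for the change with time 1 with voom.

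Some directions turned. With the library set as a block, Nes in m6A libraries at 2 weeks was 1.25 (1.27 within set 5), and the changes with time of Gfap, Steap4 and Cp were 0.20, -0.23 and -0.0215. For m6A over input in PBS mice, Cp was 0.0104 with voom, 0.21 with library size scaling and 0.0147 without a filter. With the mouse as a replicate block, Cp was 0.24 and Gfap -0.10. For its change with KA, Cp was 0.0026 with DESeq2, 0.12 with voom and 0.0085 without a filter, and Aspg was 0.0327 with voom, 0.0244 without a filter, 0.0028 without mitochondrial genes, 0.0702 with the small-count adjustment of the degrees of freedom, and 0.41 and 0.42 with the mouse as a random and a fixed replicate block. With single libraries left out, the change with time ran from -0.71 to 0.22 for Gfap, -0.29 to 0.68 for Steap4 and -0.17 to 0.43 for Cp, Cp over input in PBS mice from -0.24 to 0.13, and the change of the ratio with KA from -1.04 to 0.73 for Aspg, -0.23 to 0.20 for Cp, -1.24 to 0.24 for Lcn2, -0.39 to 0.20 for S100a6 and -1.24 to 0.15 for S1pr3. The cause was not tested. The fit of inputs at 24 h without PBS mouse 1 was not run, since no control is left. Over all genes, the 1 gene called in m6A libraries at 24 h became 156 with DESeq2 and 1121 with voom, 3 with library size scaling, 22 without a filter, 31 with all m6A libraries in 1 fit, 45 without KA mouse 8, 356 within set 4 and 0 without PBS mouse 71 or 73 or with the set as a block. From 0, those at 2 weeks in m6A libraries became 15 with DESeq2 and 2 with voom, in inputs at 24 h 12, 1482, 75 with all labelled inputs and 1914 without KA mouse 8, and in inputs at 2 weeks 116 and 357. For the change with time 1 became 5 and 62, and for m6A over input in PBS mice 170 became 738, 1189, 343 with library size scaling, 49 with the replicate block and 20 to 417 with single libraries left out. Depth limits Lcn2, Steap4 and Aspg at 2 weeks, when they had 1 to 5 counts in PBS inputs and 0 to 26 in PBS m6A libraries, and 1 deep PBS input limits the 24 h inputs.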
